A study of Homo sapiens with 15 samples.

Results

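The genes described here build ribosomes. They are 40 genes of ribosome biogenesis and the nucleolus in A549 cells, a line from a human lung adenocarcinoma. They were chosen by name for what their proteins do, but with earlier results of these data known. Their shares set beside those of all genes below are therefore descriptive. Of the 40, 37 had a probe set on the array that is paired with that gene alone, out of 18377 genes with such a probe set, and all 37 lay above the level used to remove dim probe sets on every array. NOP56 and PPAN were measured only by probe sets shared with other genes, and GNL3 is not named in the probe table used here, so no value of its own is given for these 3 genes.

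Ribosomes are assembled in the nucleolus. RNA polymerase I transcribes a long precursor of the ribosomal RNAs, box C/D and box H/ACA small nucleolar ribonucleoproteins (snoRNPs) methylate and pseudouridylate it, and a series of assembly factors fold, cut and trim it into the small and the large subunit. Growing cancer cells make many ribosomes, the process uses a large share of a cell's energy, and the genes for its factors are known to be tuned to growth signals and to oxygen supply. The 40 genes were ordered by these roles: 5 of RNA polymerase I transcription, 6 abundant nucleolar proteins, 7 snoRNP proteins, 11 factors of the small subunit and 11 of the large subunit.

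The study asked how 3 compounds known by the codes BB2-125, BB2-162 and BB2-282, which the design text calls transcriptional inhibitors, change expression in hypoxic cells. Total RNA of 15 cultures was hybridised to 15 arrays in 5 groups of 3. The normoxic vehicle cultures received 0.1% DMSO at normal oxygen, and the hypoxic vehicle cultures received 0.1% DMSO for 6 h before hypoxia was made with a GasPak EZ pouch for 42 h. The BB2-125, BB2-162 and BB2-282 cultures received 10 µM of the compound in 0.1% DMSO for the same 6 h and 42 h, so no compound was measured here at normal oxygen. For the normoxic cultures no times are given, so a difference in time in culture and low oxygen cannot be told apart in the comparisons with normoxia. The labels call the 3 arrays of a group biological replicates and say nothing else on whether cultures were grown apart, so the p-values below measure the spread between these arrays.

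All levels below are log2 of the deposited array intensity, and a change is a difference of group means on that scale, given with its standard error (SE). A difference is called where the adjusted p, from limma across 16005 genes with Benjamini-Hochberg adjustment in each comparison, is under 0.05. Because the values were normalised between arrays, a change is relative to the other genes on the array, and levels of different genes are not compared. Median intensity per array ran from 74.91 to 84.6. VEGFA, NDRG1, SLC2A1, ANKRD37 and EGLN3, which hypoxia is known to induce, were called higher in all 5 cases in the hypoxic vehicle group. All 5 epithelial markers passed the dim filter, at 4.94 to 13.29 over all arrays, and so did the 4 lung-lineage markers SFTPB, SFTPC, NAPSA and NKX2-1, at 5.24 to 6.51. Markers of other cell types passed as well: 3 of 4 of leukocytes (CD3E, CD14 and ITGAM, not PTPRC, list range 3.24 to 6.29), 5 of 5 of endothelium (4.51 to 5.93) and 2 of 5 of fibroblasts (COL1A1 and COL3A1, not DCN, LUM or PDGFRA, list range 2.88 to 7.94). Of the 5 epithelial markers 4 were lower and 1, KRT19, was higher in hypoxia, and the part of this in the results below was not tested. BB2-162 replicate 1 stood apart: its root mean square deviation from its group mean was 0.22 over all genes, against 0.09 to 0.16 for the other 14 arrays, and the counts for that group are also given without it.

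**Figure D1:**
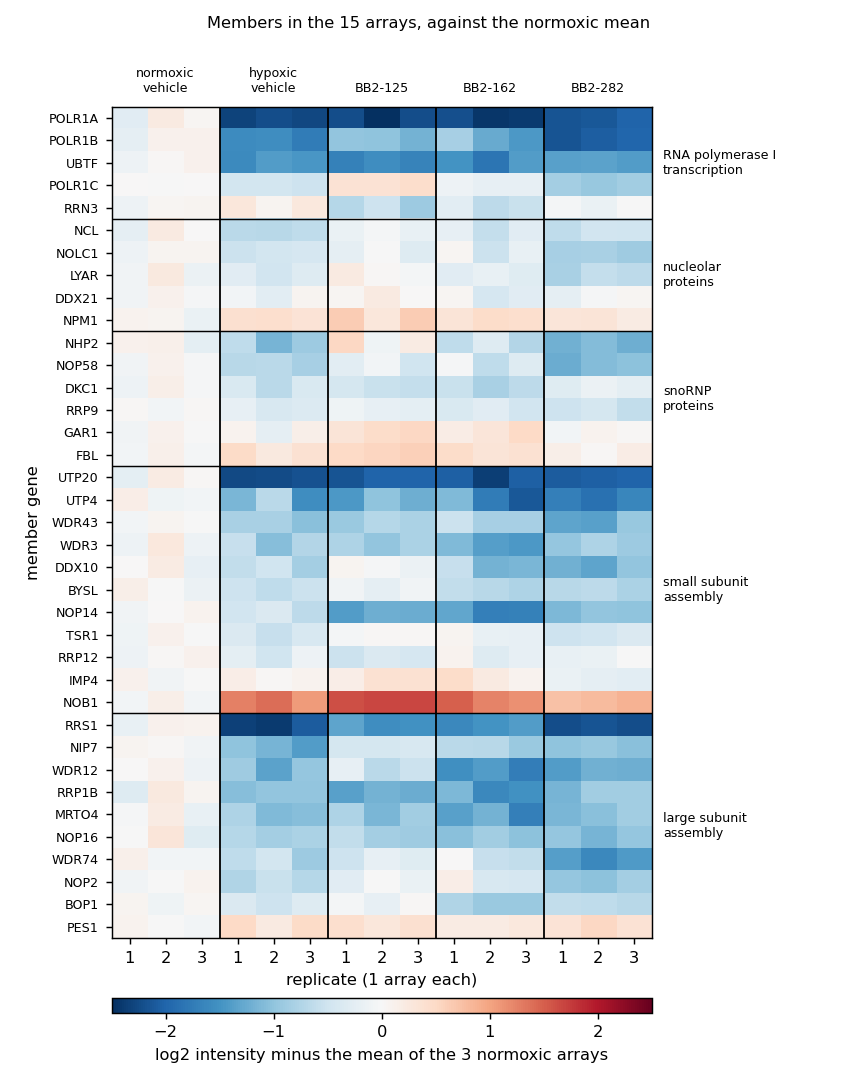
Level of each of the 37 measured genes (rows, ordered by role) on each of the 15 arrays (columns, ordered by group), shown as the log2 difference from that gene's mean in the normoxic vehicle group. Most rows turn low in the 12 hypoxic arrays, with NOB1 as the clearest row that turns high.

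In hypoxia without compound, most of the ribosome biogenesis genes fell. Of 37 genes, 28 were lower, 4 were higher and 5 were not called in the hypoxic vehicle against the normoxic vehicle, so that 86.5% were called, against 57.5% of all genes. The share called lower was 75.7%, where 29.4% of all 16005 genes were called lower; the share called higher was 10.8%, where 28.2% of all genes were. The median change was -0.65 over the 37 genes and 0.09 over all genes. In bulk RNA, fewer cells that use a gene and less of its RNA per cell cannot be told apart. The largest falls were those of RRS1, POLR1A, UTP20 and POLR1B, and the largest rise was that of NOB1.

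RRS1, a factor that helps to load the ribonucleoprotein of the smallest ribosomal RNA into the large subunit, stood at 8.58, 8.87 and 8.85 on the normoxic vehicle arrays and at 6.43, 6.37 and 6.68 on the hypoxic vehicle arrays. Every hypoxic array lay far below every normoxic one. The gene fell by 2.28 ± 0.11 (SE, n = 3 arrays in each group, adjusted p = 3.94e-12), a level 4.84-fold lower. POLR1A, the largest subunit of RNA polymerase I, stood at 8.53, 9.04 and 8.86 in normoxia and at 6.50, 6.60 and 6.54 in the hypoxic vehicle group. Its groups did not overlap either, and it fell by 2.27 ± 0.12 (adjusted p = 1.82e-11). UTP20, a large scaffold protein of small subunit processing, stood at 7.56, 8.0 and 7.82 in normoxia and at 5.54, 5.55 and 5.62 in hypoxia. The hypoxic arrays were low and close to each other, and the gene fell by 2.22 ± 0.11 (adjusted p = 8.43e-12). POLR1B, the other large catalytic subunit of RNA polymerase I, went from 7.88, 8.21 and 8.21 to 6.53, 6.54 and 6.35. It was lower on each hypoxic array and fell by 1.62 ± 0.13 (adjusted p = 6.3e-09).

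NOB1, the nuclease that makes the last cut at the end of the small subunit's RNA in the cytoplasm, went the other way. Its level was 9.04, 9.25 and 9.04 in normoxia and 10.37, 10.50 and 10.17 in hypoxia. All hypoxic arrays were the higher ones, and the gene rose by 1.24 ± 0.11 (adjusted p = 1.62e-08). The other 3 genes called higher rose by less than 0.5. PES1, a large subunit factor that works in a complex with BOP1 and WDR12, stood at 7.99, 7.88 and 7.82 in normoxia and at 8.40, 8.11 and 8.38 in hypoxia, a rise of 0.40 ± 0.10 (adjusted p = 0.00197). NPM1, an abundant nucleolar chaperone, stood at 5.21, 5.21 and 4.98 in normoxia and at 5.54, 5.55 and 5.48 in hypoxia, a rise of 0.39 ± 0.11 (adjusted p = 0.00471). The NPM1 probe set is listed by a single accession that is not a RefSeq transcript of the gene, and its signal was low. FBL (fibrillarin), the methyltransferase of box C/D snoRNPs, rose by 0.37 ± 0.09 (adjusted p = 0.00271) from 11.51, 11.69 and 11.51 to 12.05, 11.82 and 11.95. For each of these genes the lowest hypoxic array was still above the highest normoxic array.

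The upstream sequences of POLR1A, UTP20, POLR1B and NOB1 are shown because these genes carry the largest changes that have an entry in the promoter table, 3 falls and 1 rise. They are the 250 bases before the RefSeq start of transcription in GRCh38.p14, read 5′ to 3′ on the strand of the gene: POLR1A at chr2:86105887-86106136 (minus strand), UTP20 at chr12:101279855-101280104 (plus strand), POLR1B at chr2:112541786-112542035 (plus strand, the first of 2 windows for that gene) and NOB1 at chr16:69754927-69755176 (minus strand). Capitals mark CACGTG, the E-box bound by MYC and related factors, and ACGTG, the core of the hypoxia response element, on either strand. In POLR1A the capitals are ACGTG on the opposite strand.
POLR1A: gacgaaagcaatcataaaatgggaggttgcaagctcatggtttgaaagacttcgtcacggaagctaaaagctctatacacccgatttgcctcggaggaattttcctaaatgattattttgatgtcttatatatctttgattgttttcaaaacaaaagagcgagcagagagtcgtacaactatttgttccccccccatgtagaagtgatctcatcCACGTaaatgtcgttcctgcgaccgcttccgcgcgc
UTP20: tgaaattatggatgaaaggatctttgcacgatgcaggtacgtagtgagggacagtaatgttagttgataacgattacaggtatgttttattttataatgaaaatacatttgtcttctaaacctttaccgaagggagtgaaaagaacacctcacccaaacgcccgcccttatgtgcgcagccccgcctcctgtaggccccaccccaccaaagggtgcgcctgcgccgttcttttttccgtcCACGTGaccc
POLR1B: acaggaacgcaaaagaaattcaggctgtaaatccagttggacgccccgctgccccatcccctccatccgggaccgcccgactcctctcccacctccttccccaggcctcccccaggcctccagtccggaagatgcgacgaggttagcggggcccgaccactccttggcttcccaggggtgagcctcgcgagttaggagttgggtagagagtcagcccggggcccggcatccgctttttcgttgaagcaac
NOB1: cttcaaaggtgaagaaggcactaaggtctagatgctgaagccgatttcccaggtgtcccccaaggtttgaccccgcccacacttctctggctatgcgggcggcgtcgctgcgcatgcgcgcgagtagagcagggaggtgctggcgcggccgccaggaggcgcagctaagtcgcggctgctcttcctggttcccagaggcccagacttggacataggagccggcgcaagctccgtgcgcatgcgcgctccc
POLR1B and NOB1 hold neither motif in these windows. RefSeq windows were found for 34 of the 40 genes, 45 windows in all. CACGTG, which holds ACGTG on both strands, lay in 11.1% of those windows, in 7.4% of the 20069 windows of genes on the array and in 6.3% of 35116 windows of the same length of all genes in the table. The 5 genes with it were DDX21, IMP4, LYAR, UTP20 and UTP4, where UTP20, UTP4 and LYAR were called lower in hypoxia and DDX21 and IMP4 were not called. ACGTG lay in 24.4% of the windows of these genes, 20.3% of those of array genes and 18.5% of all windows. GCGTG, the other form of the hypoxia element's core, lay in 55.6% against 38.6% of array-gene windows and 32.2% of all. GGGCGG, the GC box, lay in 60.0% against 54.8% and 42.6%, and CCAAT in 33.3% against 32.7% and 32.0%. A match is a string of letters and no measured binding.

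**Figure D2:**
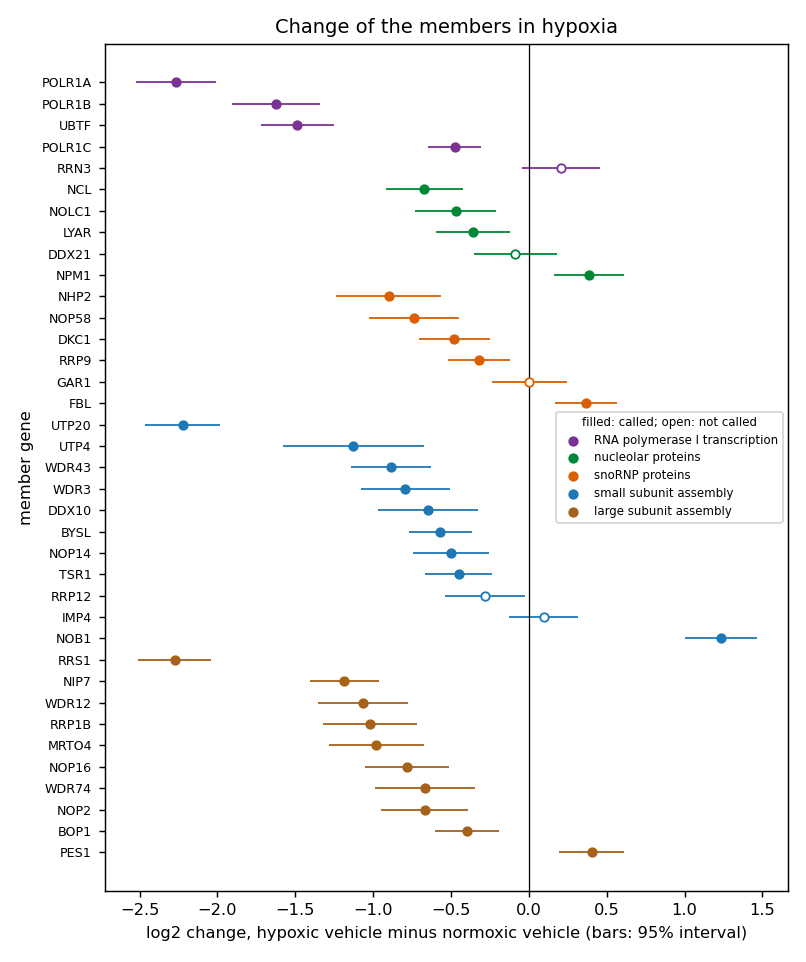
Change of each of the 37 genes in the hypoxic vehicle against the normoxic vehicle group, in log2 units, with bars for the 95% confidence interval, genes ordered by role and filled points for called genes. RRS1, POLR1A and UTP20 lie beyond -2, and NOB1, PES1, NPM1 and FBL are the genes called higher.

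By role, falls were called in every class. Of the 5 genes of RNA polymerase I transcription, 4 fell and none rose by limma (0 at an unadjusted p under 0.05), with a class median of -1.49. UBTF, the factor that binds the ribosomal gene promoter and body, went from 8.85, 9.01 and 9.09 to 7.38, 7.58 and 7.52, and all hypoxic arrays were the lower ones. It fell by 1.49 ± 0.11 (adjusted p = 1.5e-09). POLR1C, a subunit that RNA polymerases I and III share, fell by 0.48 ± 0.08. RRN3, the factor that recruits the polymerase to the promoter, changed by 0.21 (95% interval -0.04 to 0.46, adjusted p = 0.145) and was not called. With quantile normalization RRN3 was called higher (0.32, adjusted p = 0.0253). RRN3 has near-identical pseudogene copies, so its values are uncertain.

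Among the 5 measured nucleolar proteins, 3 fell and NPM1 rose. NCL (nucleolin), one of the most abundant nucleolar proteins, fell by 0.67 ± 0.12, and NOLC1, a chaperone of snoRNPs, fell by 0.47 ± 0.12. LYAR, a nucleolar protein linked to cell growth, fell by 0.36 ± 0.11 (adjusted p = 0.0119). Without normoxic vehicle replicate 2 LYAR changed by -0.24, and without hypoxic vehicle replicate 2 by -0.30, and neither was called. DDX21, an RNA helicase, changed by -0.09 (95% interval -0.35 to 0.18).

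Of the 6 measured snoRNP proteins, 4 fell and FBL rose. NHP2, a core protein of box H/ACA snoRNPs, fell by 0.90 ± 0.16, and a further probe set of the gene fell by 0.61 ± 0.14. NOP58, a core protein of box C/D snoRNPs, fell by 0.74 ± 0.14. DKC1 (dyskerin), the pseudouridine synthase of box H/ACA snoRNPs, fell by 0.48 ± 0.11. RRP9, which binds the snoRNA that guides early cleavage of the precursor, fell by 0.32 ± 0.09, and was not called after quantile normalization (adjusted p = 0.0628). GAR1, another box H/ACA core protein, was level at 0.00 (95% interval -0.24 to 0.25). Within the box C/D particle, then, FBL rose and NOP58 fell.

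Of the 11 small subunit factors, 8 fell, NOB1 rose and 2 were not called. After UTP20, the largest fall was that of UTP4, a protein of the early processing complex: 11.08, 10.79 and 10.84 in normoxia and 9.76, 10.23 and 9.34 in hypoxia, a change of -1.13 ± 0.22 (adjusted p = 0.000202). The hypoxic arrays spread widely but all lay below the normoxic ones. WDR43 and WDR3, repeat proteins of the same early complex, fell by 0.89 ± 0.12 and 0.79 ± 0.14. DDX10, a helicase, fell by 0.65 ± 0.15, and BYSL (bystin), a late small subunit factor, by 0.57 ± 0.10. NOP14 fell by 0.50 ± 0.12 and TSR1, a factor of late cytoplasmic maturation, by 0.45 ± 0.10. RRP12, a factor in the export of pre-ribosomes, changed by -0.28 (95% interval -0.54 to -0.03, adjusted p = 0.0552) and IMP4, a protein bound to the snoRNA that guides early cleavage, by 0.09 (95% interval -0.13 to 0.32). RRP12 was called lower in 5 of 15 alternatives.

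In the large subunit class, 9 of 10 measured factors fell and PES1 rose. After RRS1, the largest fall was that of NIP7, which went from 9.83, 9.79 and 9.68 to 8.76, 8.60 and 8.38, with no overlap, a change of -1.19 ± 0.10 (adjusted p = 1.58e-08). WDR12 fell by 1.07 ± 0.14, RRP1B by 1.02 ± 0.14, MRTO4, which holds the place of a stalk protein during assembly, by 0.98 ± 0.14 and NOP16 by 0.78 ± 0.13. NOP2, a methyltransferase of the large subunit RNA long known as a proliferation antigen, and WDR74 each fell by 0.67, with SEs of 0.13 and 0.15. BOP1 fell by 0.40 ± 0.10, and a further probe set of BOP1 fell by 0.51 ± 0.15. PES1, BOP1 and WDR12 form 1 complex, and in hypoxia the first was higher while the other two were lower.

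**Figure D3:**
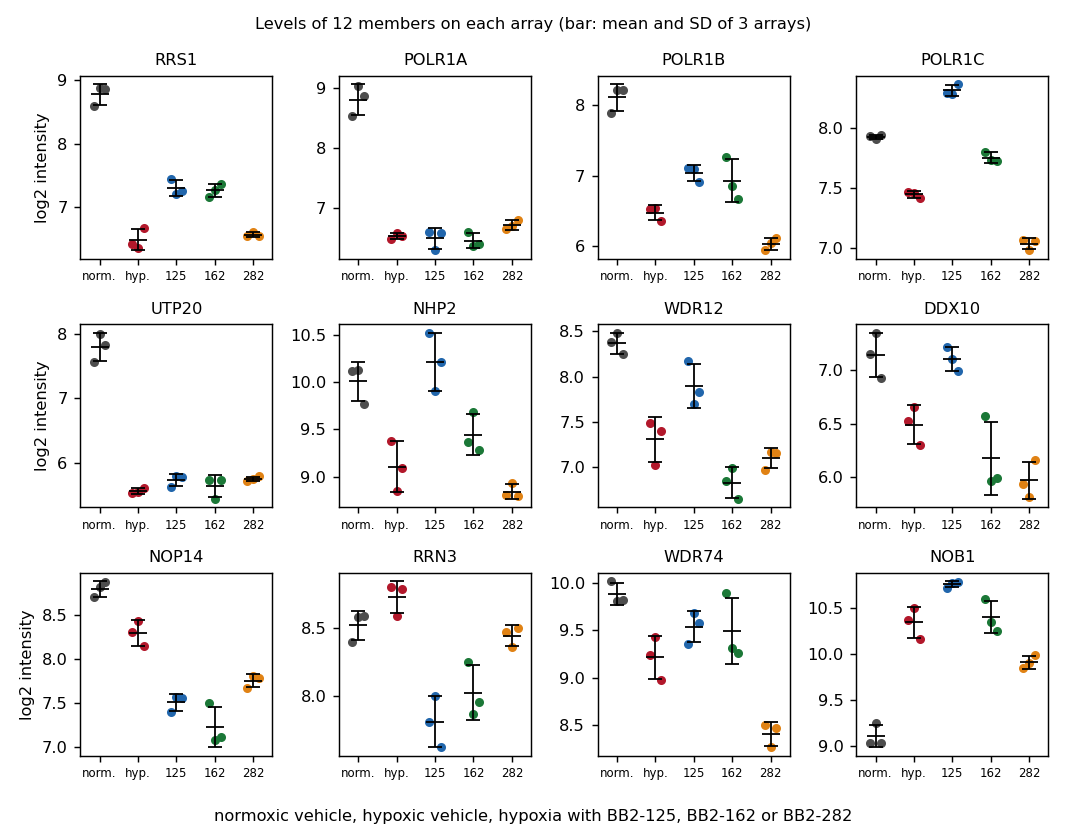
Log2 level on each array (points) for 12 of the genes in the 5 groups, with the mean and SD of the 3 arrays of a group as bars. RRS1, POLR1A and UTP20 are high in normoxia alone, NOB1 is low in normoxia alone, and POLR1C and NHP2 are higher with BB2-125 than with the hypoxic vehicle.

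A wider list of 115 other genes of the same process, of which 109 were tested, gave 64 falls and 19 rises in hypoxia, 58.7% lower and 17.4% higher against 29.4% and 28.2% of all genes, with a median change of -0.51. This list too was chosen with earlier results of these data known. The falls were 26 of 36 small subunit factors, 20 of 41 large subunit factors, 8 of 12 exosome genes, 7 of 9 snoRNP proteins and their assembly factors, and 3 of 11 genes of RNA polymerase I transcription. Rises were 11 among the large subunit factors and 4 among the polymerase I genes. RUVBL1, an ATPase needed for snoRNP assembly, fell by 2.56 ± 0.13 and UTP15, a small subunit factor, fell by 2.21 ± 0.17. TAF1D, a subunit of the polymerase I selectivity factor, rose by 2.27 ± 0.11, and NOP53, a large subunit factor, rose by 1.67 ± 0.10.

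With BB2-125 in hypoxia, many of these genes were higher than with the hypoxic vehicle. Of 37 genes, 16 were higher and 2 lower. That is 48.6% called, against 28.4% of all genes, and 43.2% called higher, against 13.3% of all genes. The median change was 0.22 over the 37 genes and 0.02 over all genes. The comparisons of the 3 compounds with the hypoxic vehicle share the same 3 vehicle arrays, and the vehicle group is the same in the comparison with normoxia.

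NHP2 had the largest rise. It stood at 9.38, 8.85 and 9.09 on the hypoxic vehicle arrays and at 10.52, 9.90 and 10.22 with BB2-125, so that each BB2-125 array was above each vehicle array. The rise was 1.10 ± 0.16 (adjusted p = 3.53e-05), and a further probe set of NHP2 gave 1.15 ± 0.14 (adjusted p = 1.16e-05). POLR1C went from 7.47, 7.46 and 7.42 to 8.29, 8.28 and 8.37. Its replicates lay within 0.1 of each other in both groups, and it rose by 0.86 ± 0.08 (adjusted p = 3.23e-07). RRS1 went from 6.43, 6.37 and 6.68 to 7.45, 7.22 and 7.26, a rise of 0.82 ± 0.11 (adjusted p = 1.71e-05), and NIP7 from 8.76, 8.60 and 8.38 to 9.32, 9.33 and 9.36, a rise of 0.75 ± 0.11 (adjusted p = 2.42e-05). Neither gene's groups overlapped.

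The other 12 genes called higher with BB2-125 changed by 0.32 to 0.61. They were DDX10 (0.61), WDR12 (0.59), POLR1B (0.56), NCL (0.54), NOP2 (0.52), NOP58 (0.46), TSR1 (0.45), BYSL (0.43), GAR1 (0.43), LYAR (0.43), NOB1 (0.41) and BOP1 (0.32). Of these, NOB1 was already higher in the hypoxic vehicle group than in normoxia. The call for BOP1 was lost without BB2-125 replicate 1, BB2-125 replicate 3 or hypoxic vehicle replicate 2, and its further probe set gave 0.17 (adjusted p = 0.516). The call was also lost for NOP58 without BB2-125 replicate 2 (0.36) or hypoxic vehicle replicate 3 (0.41), for GAR1 without hypoxic vehicle replicate 2 (0.31) and for NOB1 without hypoxic vehicle replicate 3 (0.32).

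RRN3 and NOP14 were the genes that fell with BB2-125. RRN3 stood at 8.80, 8.59 and 8.78 with the hypoxic vehicle and at 7.81, 8.0 and 7.62 with BB2-125, a change of -0.92 ± 0.12 (adjusted p = 1.13e-05). Of the 3 probe sets shared with its pseudogenes, 1 changed by -0.52 (adjusted p = 0.0084) and the others by 0.04 and 0.07, not called. NOP14, a small subunit processing factor, stood at 8.31, 8.43 and 8.14 and at 7.39, 7.56 and 7.56, a change of -0.79 ± 0.12 (adjusted p = 4.12e-05). Both were lower on each BB2-125 array. POLR1A and UTP20, which had fallen most in hypoxia beside RRS1, changed by -0.04 (95% interval -0.30 to 0.21) and 0.17 (95% interval -0.07 to 0.41) and were not called. UBTF changed by -0.16 (95% interval -0.39 to 0.08).

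Same-numbered arrays of the hypoxic vehicle and BB2-125 groups deviated together. A fit of these groups with the replicate number as a block called 20 genes, 18 higher and 2 lower. That was 54.1% called, and the share of all genes rose as well, to 33.4%. The added genes were NOLC1 (0.29, adjusted p = 0.0464) and WDR74 (0.32, adjusted p = 0.0442). In the wider list, BB2-125 gave 25 rises and 9 falls of 109. The 31.2% called was near the 28.4% of all genes, with 22.9% higher against 13.3% and 8.26% lower against 15%. POLR1F, a polymerase I subunit, rose by 1.20 ± 0.11 and UTP15 by 0.98 ± 0.17, while UTP23 fell by 0.80 ± 0.12 and NMD3, the export adaptor of the large subunit, by 0.74 ± 0.12.

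**Figure D4:**
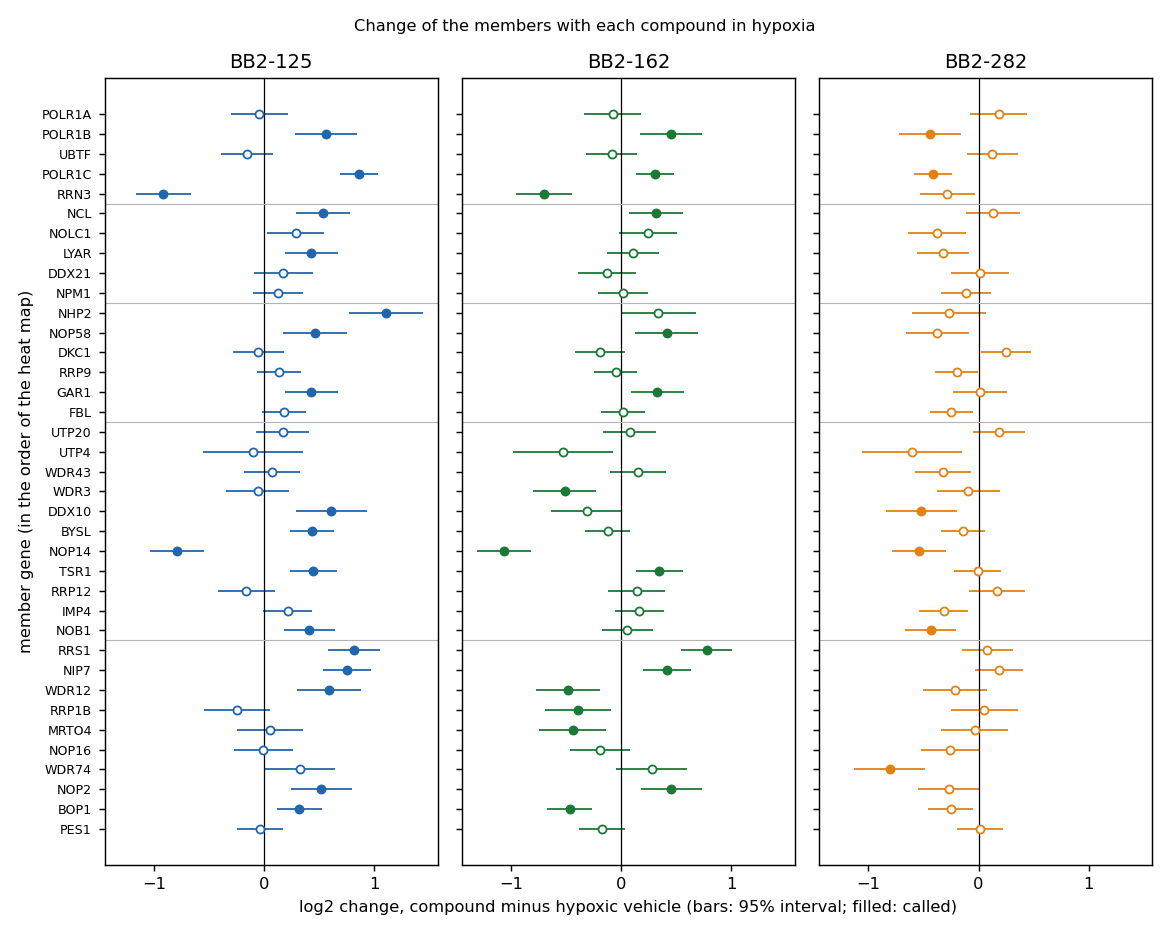
Change of each of the 37 genes with BB2-125, BB2-162 and BB2-282 against the hypoxic vehicle, in log2 units, with genes ordered by role, 95% confidence intervals as bars and filled points for called genes. All 3 panels use the same 3 vehicle arrays. The called genes are mostly to the right of 0 with BB2-125, on both sides with BB2-162, and to the left with BB2-282.

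BB2-162 moved these genes in both directions. Of 37 genes, 9 were higher and 7 lower than with the hypoxic vehicle, 43.2% called against 36.1% of all genes. The median change was 0.02. The share called higher was 24.3% against 15.7% of all genes, and the share called lower 18.9% against 20.4%. The split was not stable: with each array centred on its median, 3 were higher and 7 lower, so that the higher ones made up 30% of the calls and not 56.2%. The count was 15 (6 higher, 9 lower) without BB2-162 replicate 1 and 10 without BB2-162 replicate 3, and a fit of only these 6 arrays called 6 genes, 1 higher and 5 lower. Nor did the share called stay above that of all genes. It was 40.5% against 48.1% without BB2-162 replicate 1, 27.0% against 32.1% with median centring and 16.2% against 21.8% in the fit of only these arrays, and 27.0% against 25.9% without BB2-162 replicate 3.

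RRS1 rose most with BB2-162, from 6.43, 6.37 and 6.68 to 7.17, 7.28 and 7.37, with each BB2-162 array above the vehicle arrays. The rise was 0.78 ± 0.11 (adjusted p = 2.99e-05). NOP2 went from 8.34, 8.54 and 8.39 to 9.26, 8.70 and 8.68, a rise of 0.46 ± 0.13 (adjusted p = 0.0134), and POLR1B from 6.53, 6.54 and 6.35 to 7.26, 6.85 and 6.67, a rise of 0.45 ± 0.13 (adjusted p = 0.0152). In both genes the groups did not overlap, and BB2-162 replicate 1, the array that stood apart, was the highest. Without it POLR1B changed by 0.28 (adjusted p = 0.0612) and was not called. The POLR1B call was also lost without hypoxic vehicle replicate 3 (adjusted p = 0.0516), and that of NOP2 without hypoxic vehicle replicate 1 (adjusted p = 0.053). Median centring ended both calls. NIP7 went from 8.76, 8.60 and 8.38 to 9.09, 9.06 and 8.84, a rise of 0.42 ± 0.11 (adjusted p = 0.00516), which was not called in a fit of only these groups (adjusted p = 0.0511).

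NOP14 fell most with BB2-162, from 8.31, 8.43 and 8.14 to 7.49, 7.08 and 7.11. All BB2-162 arrays were lower, and the change was -1.07 ± 0.12 (adjusted p = 1.64e-06). RRN3 fell by 0.70 ± 0.12 (adjusted p = 0.000183), from 8.80, 8.59 and 8.78 to 8.25, 7.86 and 7.96. The probe sets that RRN3 shares with its pseudogenes went the other way in 2 of 3 cases, higher by 0.63 (adjusted p = 0.00266) and 0.64 (adjusted p = 0.00268), and the third changed by -0.31 (adjusted p = 0.0833). NOP14 and RRN3 were also the genes called lower with BB2-125, in a comparison that shares the vehicle arrays. WDR3, a small subunit factor, went from 6.04, 5.56 and 5.90 to 5.52, 5.24 and 5.19, a change of -0.51 ± 0.14 (adjusted p = 0.0074). WDR12 went from 7.49, 7.02 and 7.40 to 6.85, 6.98 and 6.65, a change of -0.48 ± 0.14 (adjusted p = 0.0122). The groups did not overlap in either, although both nearly touch, and the WDR12 call was lost without BB2-162 replicate 3 or hypoxic vehicle replicate 1.

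The other genes called higher with BB2-162 were NOP58 (0.41), TSR1 (0.34), GAR1 (0.33), NCL (0.32) and POLR1C (0.30), and the other genes called lower were BOP1 (-0.47), MRTO4 (-0.44) and RRP1B (-0.39). Several of these calls were lost in alternatives: NCL in 9 of 15, NOP58 and RRP1B in 7, GAR1 in 6, TSR1 and MRTO4 in 4, and POLR1C in 2. The further probe set of BOP1 changed by -0.32 (adjusted p = 0.115) and was not called. By role, the large subunit factors split into 3 higher and 4 lower. POLR1A changed by -0.08 (95% interval -0.34 to 0.18), UTP20 by 0.08 (-0.16 to 0.32) and UBTF by -0.09 (-0.32 to 0.15). In the wider list, 17 of 109 rose and 24 fell, and the 37.6% called, 15.6% higher and 22% lower, was near the share of all genes. POLR1F rose by 1.70 ± 0.11 and BRIX1, a large subunit factor, by 0.94 ± 0.12, and PWP1 fell by 1.0 ± 0.13 and NMD3 by 0.96 ± 0.12.

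BB2-282 gave the fewest calls. Of 37 genes, 6 were lower and none was higher than with the hypoxic vehicle by limma (1 gene, DKC1, was higher at an unadjusted p under 0.05), where 13.6% of all genes were called, 5.65% higher and 7.94% lower. The members' share, 16.2%, was near that background for all calls, and the median change was -0.21 over the 37 genes and 0.02 over all genes. Leaving out replicate 1 or replicate 2 of the vehicle, or BB2-282 replicate 1, gave 3 calls. That was 8.11%, against 7.62%, 8.45% and 9.29% of all genes in that order. Leaving out BB2-282 replicate 2 gave 4 calls (10.8% against 7.85%), and a fit of only these groups gave 11 (29.7% against 15.4%). No gene was called higher in any of these alternatives.

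WDR74, a factor of large subunit maturation, fell most, from 9.24, 9.43 and 8.97 to 8.50, 8.27 and 8.47. Each BB2-282 array was well below the vehicle arrays, and the change was -0.81 ± 0.15 (adjusted p = 0.0016). NOP14 went from 8.31, 8.43 and 8.14 to 7.67, 7.80 and 7.79, a change of -0.54 ± 0.12 (adjusted p = 0.00395). POLR1C fell by 0.41 ± 0.08 (adjusted p = 0.00242), from 7.47, 7.46 and 7.42 to 7.07, 6.98 and 7.07. These 3 calls held without any single array. DDX10 went from 6.52, 6.65 and 6.30 to 5.93, 5.82 and 6.16, a change of -0.52 ± 0.15 (adjusted p = 0.03), and POLR1B from 6.53, 6.54 and 6.35 to 5.95, 6.04 and 6.12, a change of -0.44 ± 0.13 (adjusted p = 0.0362). NOB1 fell by 0.43 ± 0.11 (adjusted p = 0.0125). The groups did not overlap in DDX10, POLR1B or NOB1, but each call was lost when BB2-282 replicate 1, or replicate 1 or replicate 2 of the hypoxic vehicle, was left out. Under these omissions DDX10 changed by -0.50, -0.50 and -0.44, POLR1B by -0.39, -0.41 and -0.41, and NOB1 by -0.40, -0.42 and -0.36. The DDX10 and POLR1B calls were also lost without BB2-282 replicate 2 (-0.44 for both) and with median centring, and that of POLR1B without BB2-282 replicate 3 (-0.48).

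In the wider list BB2-282 gave 27 falls and 1 rise of 109, 24.8% lower and 0.917% higher against 7.94% and 5.65% of all genes. EXOSC1, a subunit of the RNA exosome, fell by 1.07 ± 0.13 and RIOK2, a kinase of small subunit maturation, by 0.99 ± 0.13. The rise was POLR1F at 0.35 ± 0.11 (adjusted p = 0.0408). POLR1F was thus called higher with each compound, in 3 comparisons that use the same vehicle arrays.

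The compounds were given at the same dose and times, so they were compared directly in 3 pairs, each without a vehicle array. BB2-125 against BB2-282 gave the most calls: 22 genes higher and 3 lower with BB2-125, 67.6% called against 36.3% of all genes, and 59.5% called higher against 18.7%. The median difference was 0.43. NHP2 stood at 10.52, 9.90 and 10.22 with BB2-125 and at 8.80, 8.93 and 8.79 with BB2-282, a difference of 1.37 ± 0.16 (adjusted p = 1.96e-06). POLR1C stood at 8.29, 8.28 and 8.37 and at 7.07, 6.98 and 7.07, a difference of 1.27 ± 0.08 (adjusted p = 2.16e-09). In both the groups lay far apart. WDR74 and DDX10 each differed by 1.13 and POLR1B by 1.0.

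Lower with BB2-125 than with BB2-282 were RRN3, DKC1 (-0.30, not called in 5 of 15 alternatives) and RRP12. RRN3 stood at 7.81, 8.0 and 7.62 against 8.47, 8.36 and 8.50, a difference of -0.63 ± 0.12 (adjusted p = 0.000309). RRP12 stood at 7.67, 7.86 and 7.79 against 8.03, 8.06 and 8.21, a difference of -0.33 ± 0.12 (adjusted p = 0.0425), and was not called in 6 of 15 alternatives. Each array of BB2-125 was the lower in both genes. Of the 12 genes not called, UTP20 differed by -0.02 (95% interval -0.26 to 0.22) and WDR3 by 0.04 (-0.25 to 0.33).

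**Figure D5:**
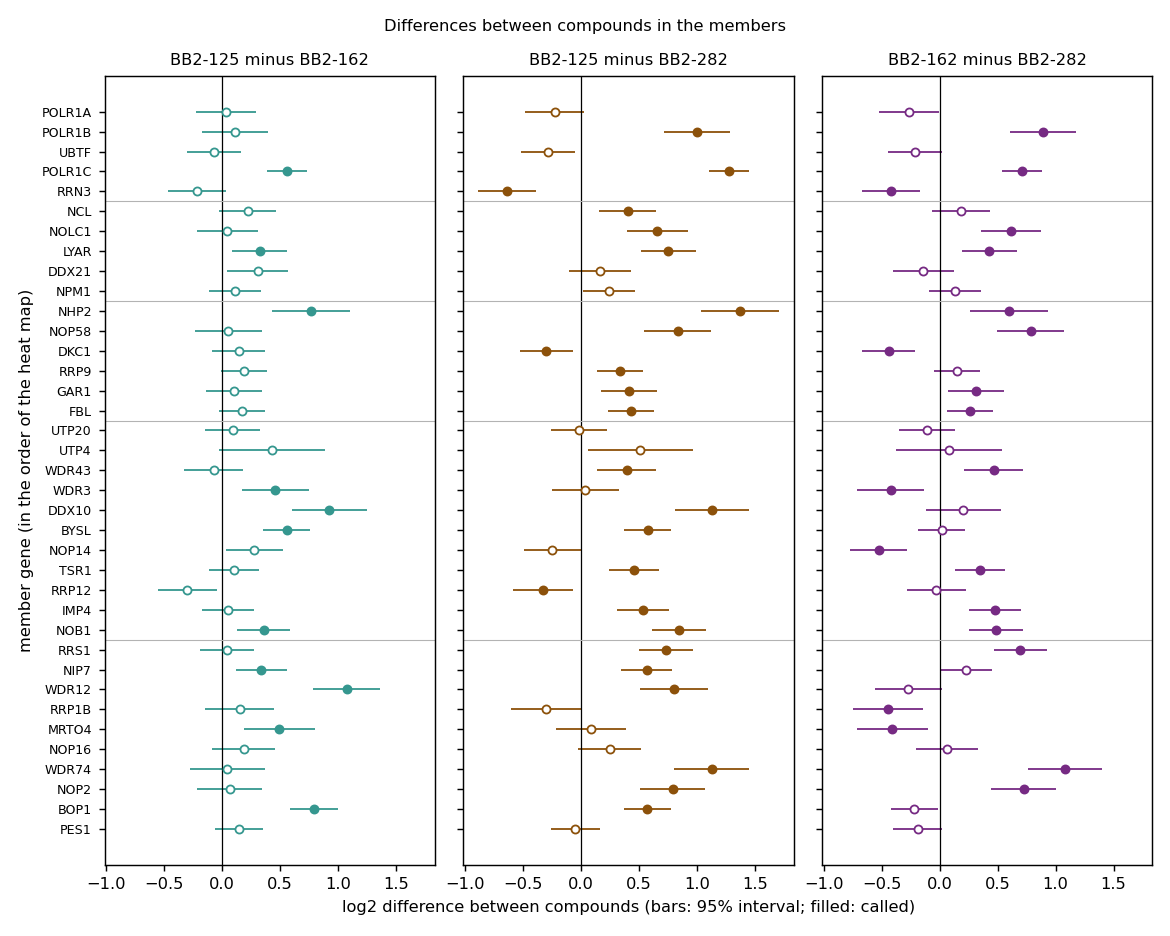
Differences between the compounds in log2 units for each of the 37 genes, in the 3 pairs, with 95% confidence intervals as bars and filled points for called genes. BB2-125 lies above BB2-282 for most genes, with NHP2 and POLR1C farthest right.

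BB2-162 against BB2-282 gave 15 genes higher and 6 lower with BB2-162, 56.8% called against 35.8% of all genes, with 40.5% higher against 15.6% and 16.2% lower against 20.3%. The median difference was 0.15. Without BB2-162 replicate 1, 14 genes were higher and 8 lower, 59.5% called against 43.9% of all genes. WDR74 stood at 9.90, 9.32 and 9.27 with BB2-162 and at 8.50, 8.27 and 8.47 with BB2-282, a difference of 1.08 ± 0.15 (adjusted p = 2.2e-05). POLR1B stood at 7.26, 6.85 and 6.67 and at 5.95, 6.04 and 6.12, a difference of 0.89 ± 0.13 (adjusted p = 4.58e-05). All BB2-162 arrays were the higher ones in both, with replicate 1 the highest. NOP14 stood at 7.49, 7.08 and 7.11 against 7.67, 7.80 and 7.79, a difference of -0.52 ± 0.12 (adjusted p = 0.0016). DKC1 stood at 7.78, 7.53 and 7.69 against 8.03, 8.18 and 8.10, a difference of -0.44 ± 0.11 (adjusted p = 0.00371). These were lower on every BB2-162 array. RRP1B differed by -0.45 as well, but its groups overlapped and its call was lost in 4 of 15 alternatives. Among the genes called higher, FBL lost its call in 9 of 15 and GAR1 in 8, and MRTO4, called lower, lost it in 5.

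BB2-125 against BB2-162 gave 11 genes higher and none lower with BB2-125 by limma (1 gene, RRP12, was lower at an unadjusted p under 0.05), 29.7% called against 26.1% of all genes, with 16.7% of all genes higher and 9.43% lower. WDR12 stood at 8.17, 7.70 and 7.83 with BB2-125 and at 6.85, 6.98 and 6.65 with BB2-162, a difference of 1.07 ± 0.14 (adjusted p = 2.2e-05). DDX10 stood at 7.21, 7.10 and 6.99 against 6.57, 5.97 and 5.99, a difference of 0.93 ± 0.15 (adjusted p = 0.000249). Neither overlapped, and both genes were higher on every BB2-125 array. BOP1, a partner of WDR12, differed by 0.79 ± 0.10 (adjusted p = 1.47e-05) and its further probe set by 0.49 ± 0.15, while PES1, the other partner, differed by 0.14 (95% interval -0.06 to 0.35). RRS1, which rose with both compounds, differed by 0.04 (-0.19 to 0.27), and the interval for POLR1B ran from -0.17 to 0.39. The count was 6 without BB2-162 replicate 3, 16.2% called against 16.5% of all genes. It was 7 without BB2-125 replicate 1 (18.9% against 18.2%) or BB2-125 replicate 3 (18.9% against 20.2%). Without BB2-162 replicate 1 it was 13, where 35.1% of these genes and 38.8% of all genes were called. RRP12 was called lower without BB2-162 replicate 2 (-0.39, adjusted p = 0.0409) and with quantile normalization (-0.33, adjusted p = 0.0421).

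Against normoxia, more of these genes were lower than higher with each compound. With BB2-125, 17 genes were lower and 7 higher, 64.9% called, near the 62% of all genes, with 31.5% of all genes higher and 30.5% lower. With BB2-162, 24 were lower and 6 higher, 81.1% called against 76.8%, with 42.4% of all genes higher and 34.4% lower. Without BB2-162 replicate 1, 28 were lower and 4 higher, 86.5% called against 79.1%. Without BB2-162 replicate 2, 21 were lower and 4 higher, 67.6% called against 71.9%. Leaving out BB2-162 replicate 3 gave 22 lower and 4 higher, 70.3% called against 69.9%. The share called with BB2-162 thus did not stay above that of all genes. With BB2-282, 27 were lower and 3 higher, 81.1% called against 64.8%, with 33.4% of all genes higher and 31.4% lower. The medians were -0.28, -0.56 and -0.89 over the 37 genes. These comparisons use the same normoxic arrays as the hypoxic vehicle comparison, where the median was -0.65. Median centring lowered the BB2-162 shift of all genes against normoxia from 0.14 to 0.03, and left 9.68% of the calls there higher, in place of 20%.

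POLR1A had the largest or next largest fall with every compound. Against 8.53, 9.04 and 8.86 in normoxia it stood at 6.60, 6.30 and 6.59 with BB2-125, at 6.61, 6.37 and 6.41 with BB2-162, and at 6.66, 6.70 and 6.81 with BB2-282. All 9 treated arrays lay far below normoxia. The changes were -2.31 ± 0.12 (adjusted p = 1.79e-11), -2.35 ± 0.12 (adjusted p = 8.79e-12) and -2.09 ± 0.12 (adjusted p = 4.63e-11). UTP20 stood at 5.63, 5.80 and 5.79 with BB2-125 and at 5.75, 5.45 and 5.75 with BB2-162, against 7.56, 8.0 and 7.82 in normoxia. Its changes were -2.06 ± 0.11 (adjusted p = 3.22e-11) and -2.15 ± 0.11 (adjusted p = 1.06e-11), and with BB2-282 the change was -2.04. RRS1 stood at 6.56, 6.61 and 6.55 with BB2-282, a change of -2.20 ± 0.11 (adjusted p = 5.01e-12) from normoxia, and its changes with BB2-125 and BB2-162 were -1.46 and -1.50.

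NOB1 remained higher than in normoxia with each compound. Against 9.04, 9.25 and 9.04 it stood at 10.72, 10.77 and 10.78 with BB2-125, a rise of 1.65 ± 0.11 (adjusted p = 3.82e-10). With BB2-162 it stood at 10.59, 10.35 and 10.25, a rise of 1.29 ± 0.11 (adjusted p = 7.02e-09), and with BB2-282 at 9.85, 9.90 and 9.98, a rise of 0.80 ± 0.11 (adjusted p = 4.01e-06). No treated array overlapped normoxia. The next largest rises were those of FBL with BB2-125, NPM1 with BB2-162 and PES1 with BB2-282. FBL stood at 12.08, 12.12 and 12.18 with BB2-125 (0.55 ± 0.09, adjusted p = 5.92e-05), NPM1 at 5.46, 5.60 and 5.56 with BB2-162 (0.41 ± 0.11, adjusted p = 0.00242), and PES1 at 8.25, 8.42 and 8.26 with BB2-282 (0.41 ± 0.10, adjusted p = 0.00138). Each of these groups lay above its normoxic arrays.

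Of the genes that hypoxia lowered, several were not called against normoxia with BB2-125. TSR1 differed from normoxia by 0.00 (95% interval -0.22 to 0.21), DDX10 by -0.04 (-0.36 to 0.28), BOP1 by -0.08 (-0.28 to 0.13), NCL by -0.13 (-0.38 to 0.11) and NHP2 by 0.20 (-0.13 to 0.54). The further probe set of BOP1 differed from normoxia by -0.34 ± 0.15 with BB2-125 (adjusted p = 0.0629) and was not called. The further probe set of NHP2 was called higher than in normoxia with BB2-125 (0.54 ± 0.14, adjusted p = 0.00296). POLR1C, lower in hypoxia without compound, was 0.39 ± 0.08 above normoxia with BB2-125 (adjusted p = 0.000545). With BB2-282 the same gene was 0.89 ± 0.08 below normoxia (adjusted p = 2.29e-08).

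In the wider list, 28 genes were higher and 56 lower with BB2-125 against normoxia, 22 and 65 with BB2-162, and 15 and 70 with BB2-282. The shares called were 77.1%, 79.8% and 78%, against 62%, 76.8% and 64.8% of all genes, and the shares lower were 51.4%, 59.6% and 64.2%, against 30.5%, 34.4% and 31.4%. TAF1D was higher by 2.04 ± 0.11 with BB2-125, 2.03 ± 0.11 with BB2-162 and 1.45 ± 0.11 with BB2-282. POLR1H, a small polymerase I subunit, was 1.52 ± 0.14 higher with BB2-125, where ZNHIT6 fell by 2.25 ± 0.21 and RRP15 fell by 2.21 ± 0.13. NOP53 was 1.58 higher with BB2-162 and with BB2-282. RUVBL1 fell by 2.96 ± 0.13 with BB2-162 and fell by 2.50 ± 0.13 with BB2-282. DDX52, a helicase, fell by 2.53 ± 0.16 with BB2-162 and UTP15 fell by 2.44 ± 0.17 with BB2-282.

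Ordered by group mean, 26 of the 37 genes were highest in normoxia, 9 with BB2-125, 1 with the hypoxic vehicle and 1 with BB2-282. The lowest mean lay with BB2-282 for 16 genes, with BB2-162 for 9, in normoxia for 5, with the hypoxic vehicle for 4 and with BB2-125 for 3. These orders are of means and include neighbours that do not differ beyond their spread. The same counts were not made over all genes, so whether they are particular to these genes was not tested. For POLR1C, BB2-125 was highest, then normoxia, BB2-162, the hypoxic vehicle and BB2-282, and of these neighbours only normoxia and BB2-162 were not called different (-0.17, 95% interval -0.35 to 0.00, adjusted p = 0.0603). For RRS1 normoxia was highest, BB2-125 and BB2-162 followed without a called difference, and BB2-282 and the hypoxic vehicle were lowest, with a difference of 0.08 (-0.15 to 0.31) between them. For NOP14 the order was normoxia, hypoxic vehicle, BB2-282, BB2-125 and BB2-162, in which BB2-282 and BB2-125 (adjusted p = 0.111) and BB2-125 and BB2-162 (adjusted p = 0.0826) were not called different.

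For NOP56, the core partner of NOP58, the probe set is shared with SNORD56, a snoRNA encoded in its intron. It stood between 8.43 and 9.20 on all arrays, changed by 0.00 ± 0.17 in hypoxia and was not called in any of the 10 comparisons. The probe set of PPAN, a large subunit factor, is shared with P2RY11 and a read-through transcript. It changed by 0.02 ± 0.11 in hypoxia (adjusted p = 0.86). With BB2-162 it was called higher than with the hypoxic vehicle (0.31 ± 0.11, adjusted p = 0.0401), and with BB2-125 lower than with BB2-162 (-0.34 ± 0.11, adjusted p = 0.0378).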

How the data were processed

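Values were measured on Affymetrix whole-transcript arrays and deposited as a series table of 28869 probe sets by 15 arrays. Per the submitters' processing notes the authors used RMA; its software and background settings are not given in the sources used here. The deposited values are intensities on a linear scale, and log2 was taken here. Of the probe sets, 19310 pair with 1 gene symbol, 1752 with several and 7807 are unnamed here; 19279 had an Entrez match. Where a gene had several, the one of highest mean signal stood for it, and 2372 genes not above the array's 25th percentile on at least 3 arrays were left out, leaving 16005. limma 3.58.1 in R 4.3.3 (lmFit on the means of 5 groups, eBayes) gave 10 comparisons with 10 residual degrees of freedom. The number of arrays limits the precision. In a test on simulated data, only 100 genes were changed by 0.5 and 100 by 1 (log2), and 55 and 96 of them were called for hypoxia against normoxia. In the data 57.5% of all genes were called in that comparison, which makes the adjusted threshold less strict. These counts therefore do not give the share of changes missed here. The members and lists were chosen with earlier results of these data known.

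Every member is named with its hypoxia change. Values on every array are given for the called members without overlap that rose or fell most: 4 each way in hypoxia alone and with each compound relative to the hypoxic vehicle, 2 each way elsewhere. Genes of the wider list, 2 each way, are given by their changes only. Same-numbered arrays correlated over 0.1 in all 3 pairs (0.19 to 0.33, in deviations from group means) only for hypoxic vehicle and BB2-125; the labels state no pairing. Alternatives were the scaling, the dim filter, the rule for probe sets, an intensity trend, the groups fitted, a replicate block, and each array left out. Promoter windows come from RefSeq, GRCh38.p14.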

Additional observations from a re-analysis of the deposited data

Results flagged for a closer look

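Some signals lay in probe sets that the comparisons above do not use because they pair with several genes. The set shared by SNORA56 and DKC1 was above its level on the normoxic arrays with BB2-125 by 0.68, with BB2-162 by 1.05 and with BB2-282 by 1.39 (log2). The sets shared by RRN3 and its pseudogenes RRN3P1 and RRN3P2 were higher than in normoxia with BB2-162 by 0.55 and 0.54, where the probe set of RRN3 alone changed by -0.50 and a set shared also with RRN3P3 by -0.23 (adjusted p = 0.13, limma). The set shared by PPAN, P2RY11 and their read-through was 0.33 higher with BB2-162. The genes that give these signals cannot be told apart in the probe sets.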

How the results depend on the processing

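Of 5540 values of single genes under the alternatives, 5263 kept their side of the threshold, 202 lost a call and 75 gained one. None of the called values changed sign. Changes of sign among values that were not called are not counted here. Of 150 counts of called genes, 137 stayed within 1.5 times the count reported. BB2-162 against the hypoxic vehicle (16 genes) gave 10 with median centring, 6 in a fit of only those groups and 7 with the replicate block in that fit. Of all genes, 32.1%, 21.8% and 22.9% were called in these. BB2-282 against the hypoxic vehicle (6 genes) gave 11 in a fit of only those groups, where 15.4% of all genes were called. BB2-125 against BB2-162 (11 genes) gave 7 in such a fit, and 6 with the replicate block, with 16.1% and 11.6% of all genes called. The causes were not tested. With each array left out in turn, the counts ran from 31 to 33 for hypoxia against normoxia, 16 to 18 for BB2-125, 10 to 15 for BB2-162 and 3 to 8 for BB2-282 against the hypoxic vehicle. The counts ran from 6 to 13 for BB2-125 against BB2-162, 22 to 24 for BB2-125 against BB2-282, and 16 to 22 for BB2-162 against BB2-282. Of all genes, 16.5% to 38.8%, 31.1% to 33.7% and 27.8% to 43.9% were called in these pairs. Against normoxia the counts ran from 23 to 25 for BB2-125, 25 to 32 for BB2-162 and 29 to 31 for BB2-282. The shares of all genes there ran from 52.6% to 60.4%, 69.7% to 79.1% and 55.8% to 62.6%. A replicate block over all arrays gave 32 genes for hypoxia against normoxia and 18 for BB2-125 against the hypoxic vehicle; in other comparisons the numbers pair no samples by the rule used. NPM1, of low signal, was removed by a stricter dim filter.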
